A study of Mus musculus with 63 samples.

Results

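A list of 10 genes that mark adipocytes was followed in lymph node lymphomas of Eµ-myc mice. It holds the adipokine genes Adipoq, Retn and Cfd, the lipid droplet genes Plin1 and Cidec, the lipid-handling genes Lpl, Lipe and Fabp4, the transcription factor gene Pparg and the enzyme gene Car3. The list was drawn up as a set of fat cell genes, and each gene was represented by the probe set that carries its symbol alone and has the highest mean over all arrays. Of the 10 genes, 9 had such a probe set, 1 each, out of 19938 genes represented in this way. Cfd was not analysed here.

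The study profiled RNA of lymph node lymphoma cells on 63 Affymetrix arrays. All mice were C57BL/6 and all samples were labelled as Emu-myc transgenic, so both groups carry the transgene, in which the Eµ enhancer of the heavy-chain locus drives Myc in B cells. The 31 CTX 4h arrays came from samples labelled as 4 h after cyclophosphamide, an alkylating chemotherapy drug, and the 32 native arrays from untreated samples. A dose of 300 mg/kg given into the peritoneum is labelled for the 29 CTX 4h arrays made from 100 ng RNA and not for the 2 made from 300 ng.

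The labels speak of recipient mice bearing transplanted lymphomas for treatment and of transgenic mice with spontaneous lymphomas as the source, and they do not settle which of these a native sample came from. The ages of the mice are not given in the sources used here. The submitters' design text covers untreated samples alone, so the treated status of 31 arrays rests on their labels. RNA was extracted with no culture in between, and for the 100 ng arrays the labels add that the cells were not purified. Each array carries its own lymphoma number. The labels do not say that every array is a different mouse, and p-values therefore reflect only the spread among arrays, which may be partly technical.

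White adipocytes store triglyceride in a large lipid droplet, whose surface carries perilipin 1 and the droplet fusion protein Cidec, and they secrete hormones such as adiponectin and, in mice, resistin. Lymph nodes of mice lie embedded in fat pads, and the nuclear receptor PPARγ drives the differentiation of fat cells. Lpl encodes lipoprotein lipase, the enzyme that frees fatty acids from circulating lipoproteins, and is also made by macrophages and muscle. Adipoq, Plin1, Cidec and Retn are largely confined to fat cells in mouse tissue, apart from lesser expression of some of them elsewhere, and their mean log2 level is called the fat-only level below.

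The arrays fell into 4 batches, formed by RNA input and, at 100 ng, by the first digit of the lymphoma number. The digit 1 held 6 CTX 4h and 7 native arrays, the digit 8 held 9 CTX 4h and 3 native, and the digit 9 held 14 CTX 4h and 5 native. The 300 ng batch held 2 CTX 4h and 17 native arrays. Array medians lay between 6.53 and 7.11 (log2), and the highest Pearson correlation between any 2 arrays over all genes was 0.995. Native replicates 25 and 4 resembled the others least, with mean correlations of 0.906 and 0.915 with the other arrays. Their Myc levels were also the lowest, 11.39 and 10.64 (log2), against 12.36 to 13.78 on CTX 4h arrays and 12.87 to 13.75 on the other 30 native arrays, so these 2 arrays go against the others for the gene the transgene carries. The mean of 8 mammary epithelial genes was 8.11 on native replicate 4, against 6.20 to 7.08 on CTX 4h arrays and 6.15 to 7.30 on the other native arrays. The mean of 9 salivary gland genes was 10.71 on the same array, the highest of the native arrays, and reached 10.72 on CTX 4h arrays. B-cell markers were present in both groups: the mean log2 level of 7 B-cell genes was 9.95 to 12.07 on CTX 4h arrays and 9.96 to 12.08 on native arrays.

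The promoter windows of the 4 fat-only genes are shown because these genes varied together over the arrays. Each window runs from 250 bases before to 50 after the gene's start in RefSeq GRCm38.p6, 5′ to 3′ on the gene's strand. Windows were listed for 6 of the 9 measured genes and not for Lpl, Fabp4 and Car3. Capitals mark matches, on either strand, to CCAAT (the CCAAT box), AGGTCA (a nuclear receptor half-site), TATAAA (the TATA box) or TTGCNNAA (a C/EBP motif), none of which overlapped. The Adipoq window is chr16:23146286-23146585 (plus strand), the Plin1 window chr7:79732727-79733026 (minus strand), the Cidec window chr6:113435711-113436010 (minus strand, 1 of 2 listed) and the Retn window chr8:3655520-3655819 (plus strand).
Adipoq: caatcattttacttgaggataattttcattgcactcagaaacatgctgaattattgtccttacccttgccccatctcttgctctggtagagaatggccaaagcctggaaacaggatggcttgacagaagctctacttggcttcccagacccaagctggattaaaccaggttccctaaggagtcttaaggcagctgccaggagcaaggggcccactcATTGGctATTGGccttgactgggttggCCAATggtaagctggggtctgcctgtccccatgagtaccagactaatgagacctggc
Plin1: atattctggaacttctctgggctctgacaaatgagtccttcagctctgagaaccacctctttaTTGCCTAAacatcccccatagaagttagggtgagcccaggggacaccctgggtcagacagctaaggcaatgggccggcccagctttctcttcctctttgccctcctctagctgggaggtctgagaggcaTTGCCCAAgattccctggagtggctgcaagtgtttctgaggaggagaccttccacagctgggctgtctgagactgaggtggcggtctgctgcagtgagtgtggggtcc
Cidec: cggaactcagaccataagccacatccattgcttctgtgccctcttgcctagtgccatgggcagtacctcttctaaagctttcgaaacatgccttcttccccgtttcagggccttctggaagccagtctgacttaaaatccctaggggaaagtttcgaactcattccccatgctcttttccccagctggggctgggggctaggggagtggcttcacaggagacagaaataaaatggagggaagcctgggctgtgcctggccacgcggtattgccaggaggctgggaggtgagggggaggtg
Retn: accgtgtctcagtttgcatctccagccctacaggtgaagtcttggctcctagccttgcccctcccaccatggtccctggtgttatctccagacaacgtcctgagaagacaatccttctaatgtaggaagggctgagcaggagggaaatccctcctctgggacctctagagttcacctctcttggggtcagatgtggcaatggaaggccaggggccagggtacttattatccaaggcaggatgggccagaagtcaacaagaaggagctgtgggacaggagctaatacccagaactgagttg
Adipoq had 3 CCAAT matches and Plin1 had 2 TTGCNNAA matches, while none of the 4 motifs was found in these windows of Cidec and Retn. CCAAT occurred in 37.4% of 32851 windows of that length, AGGTCA in 16.3%, TATAAA in 13.6% and TTGCNNAA in 10.8%. Such a match describes the letters of the window.

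The adipocyte genes were among the most variable genes of the series. Over the 63 arrays Car3, a carbonic anhydrase abundant in fat and also made in skeletal muscle, had an SD of 1.84 (log2), rank 19 of 19938 genes, and its highest value was 129-fold its lowest. Adipoq and Retn each had an SD of 1.54 (ranks 34 and 35), with 63.5-fold and 72.6-fold between the extremes. These 3 genes spanned far more than most genes, since the median SD of all genes was 0.315. Cidec had an SD of 1.41 (rank 48) and Lpl one of 1.08 (rank 182), with 41.5-fold and 27.4-fold between their extremes. Fabp4 followed at 0.97 (rank 287), Plin1 at 0.76 (rank 740), Pparg at 0.53 (rank 2686) and Lipe at 0.51 (rank 3072). In samples of mixed cells, fewer cells of a type and less RNA per cell cannot be told apart.

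The same arrays tended to be high for several of the 9 genes. For 8 arrays, 6 or more of the genes had the array among their 10 highest, and all 8 were CTX 4h arrays: replicates 1 and 2 at 300 ng, replicate 11 of the digit 8 and replicates 12, 13, 14, 20 and 25 of the digit 9. CTX 4h replicates 11 and 25 were among the 10 highest for all 9 genes. On 43 of the 63 arrays none of the genes reached its 10 highest. At the low end, 13 arrays were among the 16 lowest for 6 or more genes, 6 of them CTX 4h and 7 native. At the matching cut of the 16 highest, 15 arrays counted for 6 or more genes, 10 of them CTX 4h and 5 native (replicates 4, 5, 8, 13 and 22), so both ends held arrays of both groups. The mean log2 level of 15 macrophage markers on the 8 high arrays ranged from 8.20 on CTX 4h replicate 12 to 10.09 on CTX 4h replicate 1, against 7.99 to 10.09 over all CTX 4h arrays and 8.28 to 9.28 over native arrays. The part of macrophage RNA in the high values was not tested.

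**Figure D1:**
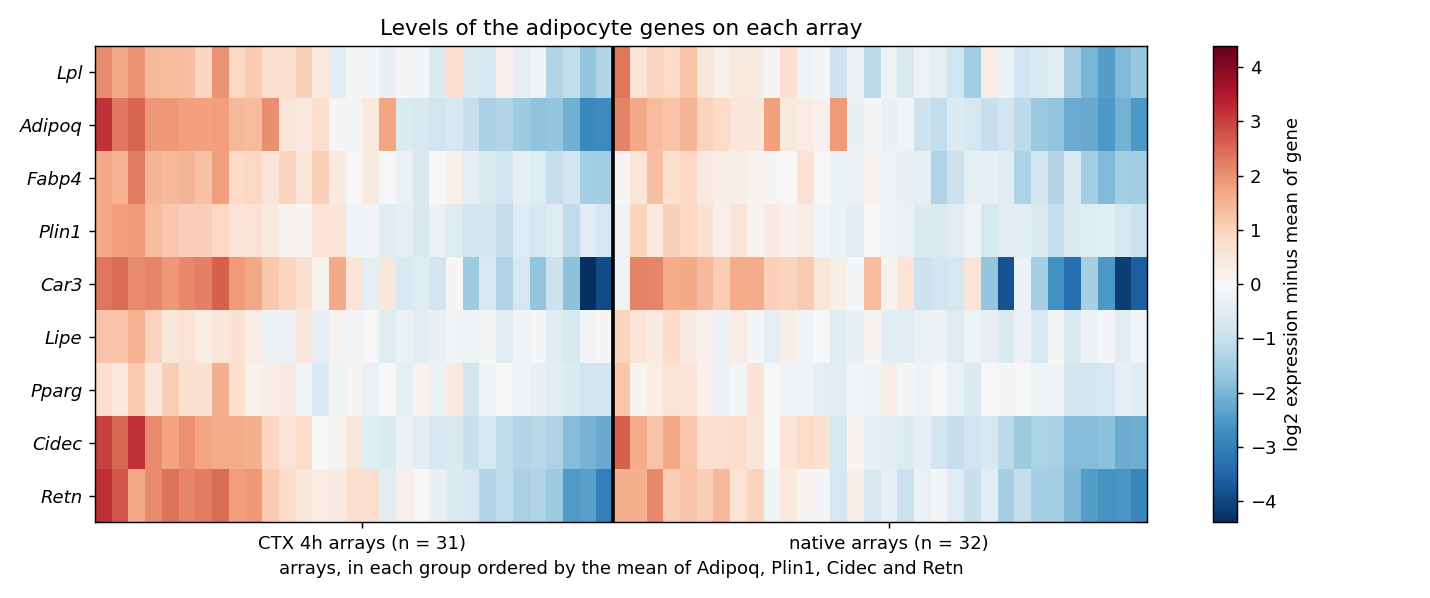
Log2 expression of each of the 9 adipocyte genes minus that gene's mean, with 1 column per array. CTX 4h arrays (n = 31) lie left of the line and native arrays (n = 32) right of it, each ordered by the fat-only level. The genes share a gradient from high (red) to low (blue) within each group.

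In the comparison of CTX 4h with native arrays, with RNA input in the model, Lpl and Fabp4 rose and no adipocyte gene fell. By limma with Benjamini-Hochberg adjustment over 19938 genes, 2 of the 9 genes passed an adjusted p of 0.05 upward, where 1.41% of all genes did, and 0 passed downward, where 1.26% did (2.67% in either direction). Differences of all 9 genes were positive, with a median of 0.874 (log2) against -0.01 for all genes, of which 46.0% were positive. A uniform sign was not particular to them. Of 13 stromal and endothelial genes 13 were positive, of 10 skeletal muscle genes 10 and of 15 macrophage genes 14. Of 8 mammary epithelial genes 4 were positive, and of 7 B-cell genes 1. The muscle count did not hold within batches. For the digits 1, 8 and 9 and at 300 ng, 8, 0, 10 and 0 of the 10 muscle genes were positive. Of the 9 adipocyte genes 5, 6, 9 and 9 were positive in that order. Neither count nor median is a test of the group of genes. CTX 4h and native arrays overlapped for each of the 9 genes.

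Among the lipid-handling genes, Lpl had log2 levels of 7.59, 9.49 and 11.36 on CTX 4h arrays (lowest, median and highest), against 6.88, 9.04 and 11.65 on native arrays. On CTX 4h arrays it exceeded the native median on 21 of 31, and the highest value of all belonged to native replicate 4, 1 of the 2 arrays of lowest correlation and lowest Myc. The model put Lpl 1.17 ± 0.27 higher (log2, SE) in CTX 4h, a 2.25-fold difference (limma adjusted p = 0.00723). Lpl stayed past the threshold on leaving out each of the 63 arrays in turn, with adjusted p between 0.00227 and 0.0224. Without native replicates 25 and 4 together it differed by 1.23 ± 0.26 (limma adjusted p = 0.00186), and 5 of the 9 genes passed upward. In that fit 12.5% of all genes passed in either direction, 838 genes upward and 1657 downward.

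Fabp4, a fatty acid carrier of fat cells that macrophages and endothelium also make, lay at 8.49, 10.42 and 12.30 on CTX 4h arrays, against 8.08, 9.75 and 11.34 on native arrays. CTX 4h arrays were above the native median on 20 of 31, and 7 of them exceeded every native array. The difference was 0.88 ± 0.26 (log2, SE; limma adjusted p = 0.0455). The call was lost on leaving out any one of 27 arrays, most of all CTX 4h replicate 1 (0.79, adjusted p = 0.127).

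Lipe, which encodes hormone-sensitive lipase, lay at 7.89, 8.49 and 10.12 on CTX 4h arrays, against 7.92, 8.34 and 9.55 on native arrays. Its range was the narrowest of the 9 genes, though its SD of 0.51 exceeded the median SD of all genes, 0.315. On CTX 4h arrays it exceeded the native median on 21 of 31. Its difference of 0.38 ± 0.14 did not pass (limma adjusted p = 0.136).

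Of the adipokine genes, Retn (resistin) lay at 6.13, 9.48 and 12.31 on CTX 4h arrays, against 6.26, 8.79 and 11.22 on native arrays. CTX 4h arrays held both the highest and the lowest value, and 20 of 31 exceeded the native median. The difference was 1.31 ± 0.41 and did not pass (limma adjusted p = 0.0626). It passed when any one of 9 arrays was left out, with the lowest adjusted p, 0.0215, without native replicate 22.

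Adipoq (adiponectin) lay at 5.39, 8.62 and 11.38 on CTX 4h arrays, against 5.70, 7.99 and 10.37 on native arrays. Here too CTX 4h arrays held both extremes, and 18 of 31 exceeded the native median. The difference was 0.84 ± 0.43 (limma adjusted p = 0.301), with a 95% interval from -0.02 to 1.70.

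Of the lipid droplet genes, Cidec lay at 6.37, 8.56 and 11.75 on CTX 4h arrays, against 6.41, 8.15 and 11.20 on native arrays. Its difference of 0.996 ± 0.382 did not pass (limma adjusted p = 0.149), and 17 of 31 CTX 4h arrays exceeded the native median. Plin1 lay at 6.33, 7.31 and 9.31 on CTX 4h arrays, against 6.45, 7.19 and 8.48 on native arrays. Although 7 CTX 4h arrays exceeded every native array, the Plin1 difference of 0.45 ± 0.21 did not pass (limma adjusted p = 0.252).

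Pparg lay at 7.51, 8.41 and 9.97 on CTX 4h arrays, against 7.56, 8.27 and 9.61 on native arrays. Its difference of 0.43 ± 0.14 did not pass (limma adjusted p = 0.0798), but it did when any one of 5 arrays was left out, with the lowest adjusted p, 0.0334, without native replicate 18. Car3 lay at 6.29, 11.18 and 13.31 on CTX 4h arrays, against 6.57, 10.89 and 12.86 on native arrays. Both groups covered nearly the same wide range, and the Car3 difference of 0.87 ± 0.52 did not pass (limma adjusted p = 0.381).

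**Figure D2:**
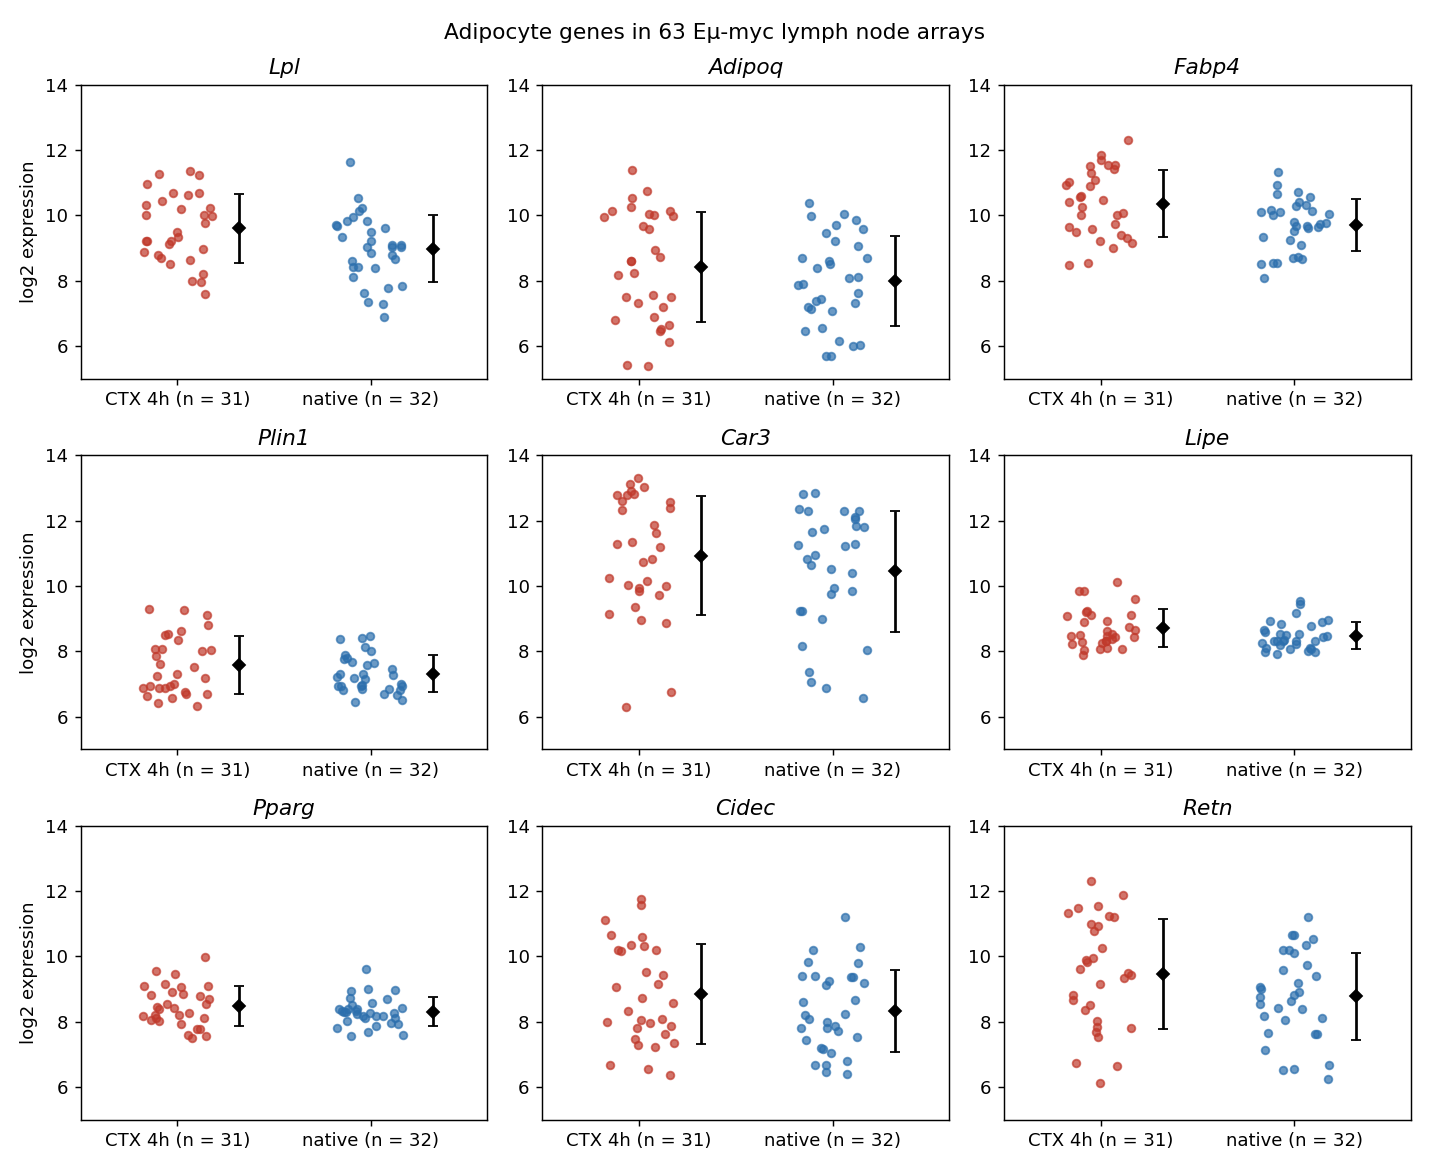
Log2 expression of the 9 adipocyte genes on each array, CTX 4h (red, n = 31) left of native (blue, n = 32), with the mean and SD in black. Points are single arrays, and the groups overlap in every panel.

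The call of Lpl depended on how the groups were compared. With no RNA input in the model Lpl differed by 0.62 (limma adjusted p = 0.291). RNA input was unevenly spread over the groups, with 2 of 31 CTX 4h arrays and 17 of 32 native arrays from 300 ng. The RNA input term itself was 1.18 for Lpl, 300 ng over 100 ng (adjusted p = 0.0536, where 0.16% of all genes passed). Among the 44 arrays of 100 ng, Lpl differed by 1.12 ± 0.30 (adjusted p = 0.115) and 0 of the 9 genes passed (0.251% of all genes did). With all 4 batches as a block, Lpl differed by 0.89 ± 0.24 and passed (adjusted p = 0.0459), and Fabp4 differed by 0.69 ± 0.25 and did not (adjusted p = 0.225), where 1.05% of all genes passed. With RNA input and the digit as separate terms Lpl alone passed (0.90 ± 0.24, adjusted p = 0.0435, where 1.04% of all genes passed), and at 100 ng with the digit as a term 0 of the 9 genes did (Lpl 0.78 ± 0.26, adjusted p = 0.447, where 0.0752% passed).

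Within the 4 batches the differences of Lpl, Fabp4, Lipe and Retn were positive in each, and those of the other 5 genes were not. For the digit 1, however, Retn differed by only 0.0022 ± 0.5514, Lipe by 0.07 ± 0.15 and Fabp4 by 0.21 ± 0.40. In the 100 ng batch of the digit 1, Lpl ranged over 7.59, 8.50 and 8.98 on CTX 4h arrays (lowest, median and highest, n = 6), against 6.88, 7.78 and 8.61 on native arrays (n = 7), a difference of 0.64 ± 0.30. Adipoq, Car3, Cidec and Plin1 were lower in CTX 4h there, by -0.40, -0.70, -0.10 and -0.12 on the log2 scale. The median difference of the 9 genes in this batch was 0.0022. No gene of the 19938 passed in it by limma (775 had an unadjusted p under 0.05), and Lpl had an adjusted p of 0.9998.

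In the batch of the digit 8, the 9 CTX 4h arrays had Lpl levels between 9.11 and 10.64 with a median of 9.99, and the 3 native arrays had 9.67, 9.04 and 9.33. Lpl differed by 0.47 ± 0.33 (limma adjusted p = 0.950), and Adipoq by -0.18 ± 0.69. In the batch of the digit 9 every one of the 9 genes was higher in CTX 4h, with a median difference of 1.10, and Lpl differed by 1.10 ± 0.50 (limma adjusted p = 0.968). Neither batch had a gene past the threshold, with 1157 and 602 genes at an unadjusted p under 0.05.

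At 300 ng the 2 CTX 4h arrays had Lpl levels of 11.25 and 10.68, against 8.42, 9.50 and 11.65 on 17 native arrays. For Fabp4 (11.86 and 11.44) and Retn (11.56 and 11.49) both CTX 4h arrays exceeded all 17 native arrays, whose highest values were 10.93 and 10.67. The share of all genes separated in this way was not counted. Without that share the separation of 2 arrays from 17 cannot be weighed, and neither gene passed. Of the 9 genes, Pparg alone passed, with 9.97 and 9.47 in CTX 4h, against 7.95 to 9.61 in native and a difference of 1.24 ± 0.28 (limma adjusted p = 0.0257, where 1.77% of all genes passed). The Pparg call was lost without CTX 4h replicate 1 (0.99, adjusted p = 0.734) and without CTX 4h replicate 2 (1.498, adjusted p = 0.135), fits in which the lone treated array is assumed to vary like the native ones. Lpl differed by 1.46 ± 0.55 (adjusted p = 0.217) and Fabp4 by 1.81 ± 0.48 (adjusted p = 0.0570).

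The size of the treatment difference was itself compared between RNA inputs and between batches. By limma no adipocyte gene passed for the interaction of treatment with RNA input (Pparg adjusted p = 0.722, the other 8 genes 0.9994), where 0.0201% of all genes passed. None passed for the interaction with batch (Pparg 0.872, the others 0.9998), where no gene did. The difference of 300 ng minus 100 ng in the treatment effect was 0.96 for Pparg (95% interval 0.21 to 1.71) and 0.34 for Lpl (-1.15 to 1.82), so the intervals allow sizeable differences in either direction for Lpl.

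**Figure D3:**
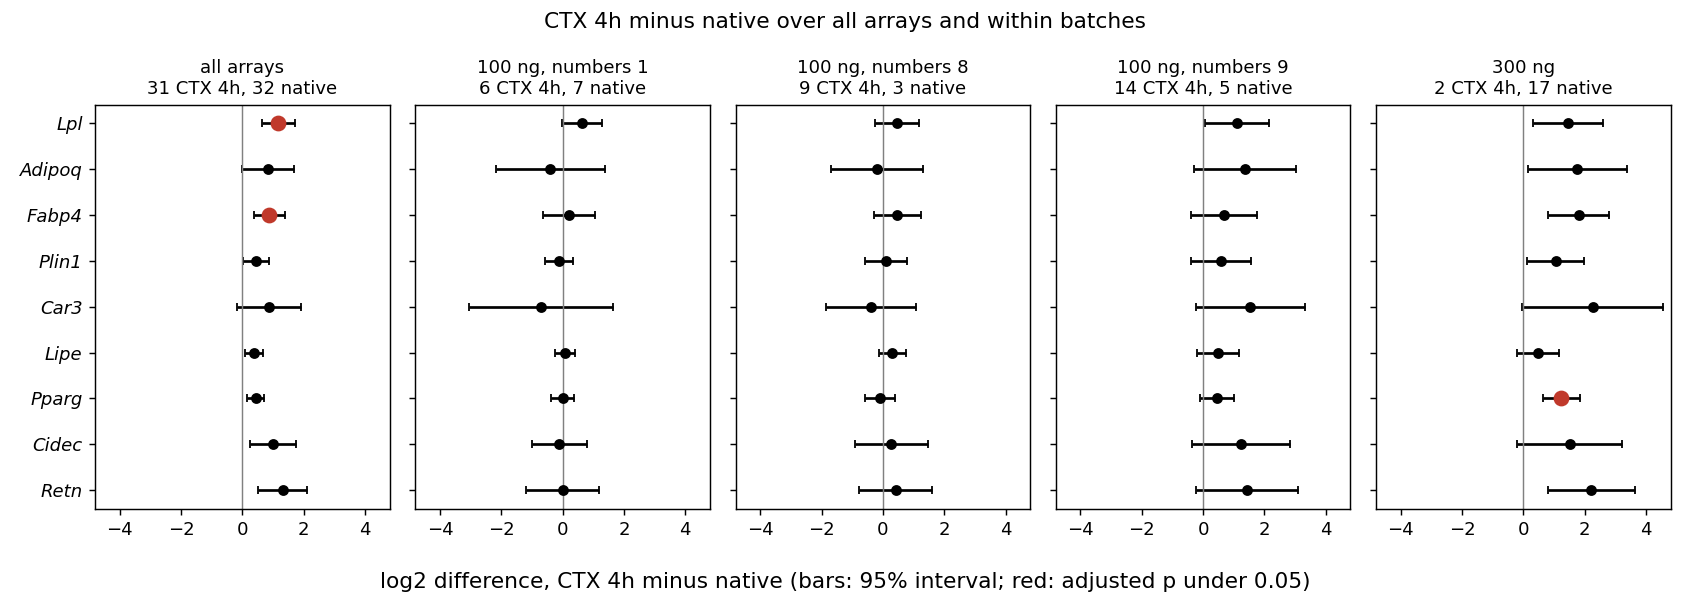
Log2 difference of CTX 4h minus native for each adipocyte gene over all arrays with RNA input in the model (left) and within each batch. Bars are 95% intervals and red points passed an adjusted p of 0.05: Lpl and Fabp4 over all arrays, and Pparg at 300 ng.

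Many genes of the series differed between batches within each treatment group, and several adipocyte genes were among them. Over the 4 batches of CTX 4h arrays, Pparg (adjusted p = 0.00414), Lpl (0.00727), Retn (0.00820), Cidec (0.0387) and Fabp4 (0.0418) passed, as did 31.6% of all genes. Median Lpl on CTX 4h arrays was 8.50, 9.99 and 9.89 for the digits 1, 8 and 9, and 10.96 at 300 ng. Over the 4 batches of native arrays, Lpl (limma F test, adjusted p = 0.00164), Retn (0.0262) and Pparg (0.0381) passed. As a share of the 9 genes this was near the 31% of all genes that passed. Median Lpl on native arrays was 7.78 for the digit 1, 9.33 for the digit 8, 8.67 for the digit 9 and 9.50 at 300 ng. Native lymphomas of the digit 1 were thus the lowest for Lpl.

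Among the 100 ng arrays, with treatment in the model, 5 of the 9 genes were higher for the digit 8 than for the digit 1, where 20.8% of all genes were called higher. They were Retn (2.03), Cidec (1.53), Lpl (1.40, limma adjusted p = 5.40e-04), Fabp4 (0.94) and Pparg (0.49). The same 5 genes were higher for the digit 9 than for the digit 1, at 1.602, 1.36, 1.22, 0.91 and 0.46, where 28.9% of all genes were. Both comparisons share the arrays of the digit 1. What the digit stands for is not given in the labels.

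Lpl was set beside the fat-only genes because it is also made outside fat. On CTX 4h arrays (n = 31) Lpl correlated with Cidec (Pearson r = 0.92, Spearman rho = 0.91), Retn (0.90 and 0.89), Adipoq (0.88 and 0.88) and Plin1 (0.83 and 0.83), each with an adjusted permutation p of 2e-05. On native arrays (n = 32) the values were 0.89 and 0.89 for Cidec, 0.89 and 0.91 for Retn and 0.79 and 0.77 for Adipoq, with the same adjusted permutation p. Plin1 had 0.61 and 0.68 there, with adjusted permutation p-values of 4.2e-04 and 7e-05. Before adjustment 1e-05 is the smallest p that 100000 permutations can give, and the adjustment covers 14 relations. On leaving out the 2 arrays farthest from the median of the other gene, r was between 0.80 and 0.91 on CTX 4h arrays and between 0.58 and 0.88 on native arrays.

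Over all arrays of a group, macrophage genes gave lower correlations with Lpl. Csf1r, which encodes the receptor for a macrophage growth factor, had r = 0.08 on CTX 4h arrays and r = -0.02 on native arrays (rho = 0.26 and -0.17, adjusted permutation p = 0.777 and 0.976 for r). Cd68, a lysosomal protein gene, had r = 0.28 and r = 0.0055 (rho = 0.32 and -0.15, adjusted permutation p = 0.165 and 0.976). Adgre1, the gene of the F4/80 antigen, had r = 0.38 and 0.30 (rho = 0.35 and 0.27, adjusted permutation p = 0.0556 and 0.124). None of these 6 relations passed. On CTX 4h arrays without the 2 farthest, Adgre1 passed (r = 0.44, adjusted permutation p = 0.0241). Csf1r had r = 0.37 and rho = 0.39 in such a set (adjusted permutation p = 0.0627 and 0.0508), so its r over all 31 arrays depended on 2 arrays. Within batches of CTX 4h arrays Csf1r had r = -0.11, -0.06 and 0.40 for the digits 1, 8 and 9.

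Within batches the relations with fat-only genes kept their sign. Cidec, whose r was the highest over all arrays of each group, had r = 0.79 and 0.85 for the digit 1 (CTX 4h, n = 6, and native, n = 7), 0.90 and 0.91 on CTX 4h arrays of the digits 8 and 9 (n = 9 and 14) and 0.89 on native 300 ng arrays (n = 17). Adjusted over 35 relations, exact permutation in groups under 10, Cidec passed in the last 3 of these 5 groups. For the digit 1 Adgre1 had r = 0.88 on the 6 CTX 4h arrays (exact permutation, adjusted p = 0.0577) and r = 0.98 on the 7 native arrays (exact permutation, adjusted p = 0.00154), above each fat-only gene in those groups. Elsewhere it had r = 0.46 and 0.28 on CTX 4h arrays of the digits 8 and 9 and r = -0.29 on native 300 ng arrays. Groups with under 6 arrays gave no value.

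**Figure D4:**
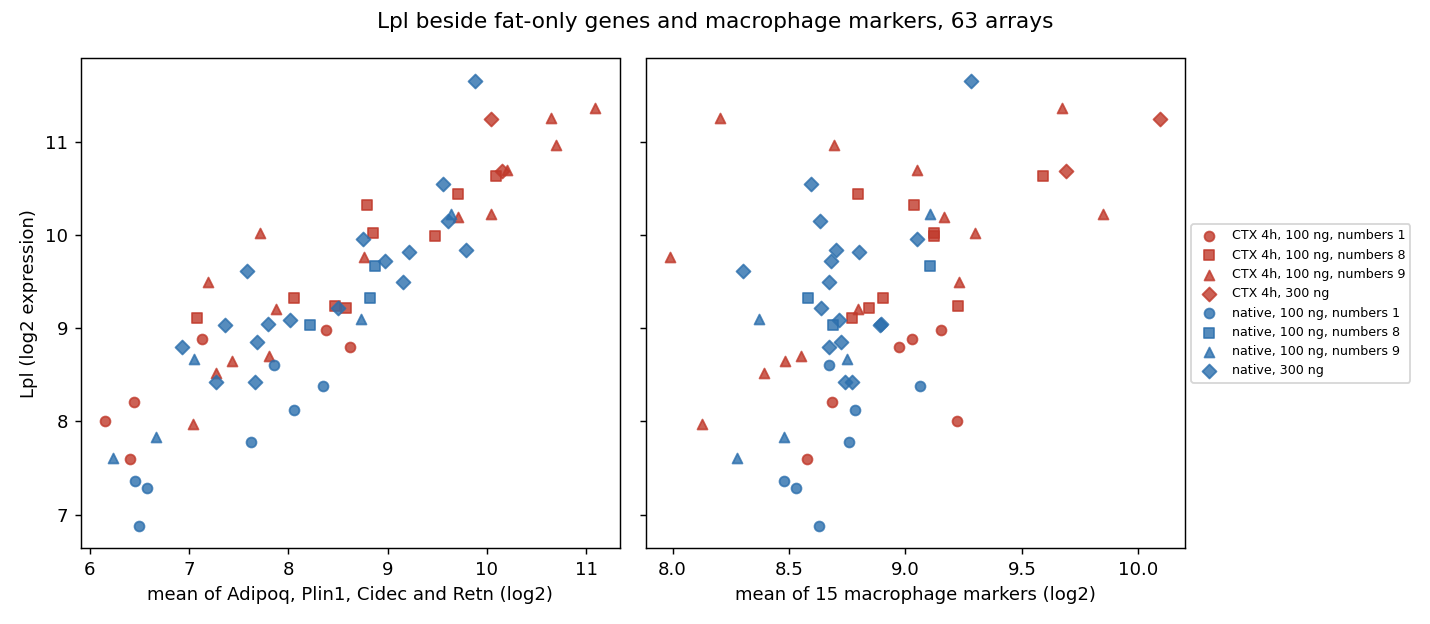
Log2 Lpl on each of 63 arrays against the fat-only level (left) and against the mean of 15 macrophage markers (right). Red marks CTX 4h and blue native, and the shapes mark the batches. Lpl climbs with the fat-only level in both groups, and is spread widely at a given macrophage level.

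With the fat-only level held in the model beside RNA input, Lpl was still higher in CTX 4h. Its difference was 0.55 ± 0.13 (log2, SE; limma adjusted p = 0.0321), where 0.421% of all genes passed, against 1.17 without that term. The fat-only level itself differed by 0.90 between CTX 4h and native with RNA input in the model, and Lpl gained 0.69 per unit of it. Of 63 fits that each left out 1 array, 54 kept the call. It was lost without CTX 4h replicates 1, 6 and 18 and without native replicates 20, 26, 27, 28, 29 and 30, with adjusted p up to 0.0765 (native replicate 26). With batches as a block the difference was 0.49 ± 0.12 (adjusted p = 0.0395, where 0.461% of all genes passed). With the Adipoq level alone held it was 0.73 ± 0.15 (adjusted p = 0.00494, where 0.923% passed).

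Within each batch, with the fat-only level held, Lpl differed by 0.72 ± 0.18 for the digit 1, 0.38 ± 0.19 for the digit 8, 0.33 ± 0.22 for the digit 9 and 0.34 ± 0.38 at 300 ng. All 4 values were positive and none passed by limma (adjusted p from 0.662 to 0.802), where 0.00502%, 0.00502%, 0% and 0.582% of all genes passed in that order of batches.

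Arrays farthest above the line of Lpl on the fat-only level were CTX 4h replicate 23 (1.21 above), native replicate 4 (1.19), CTX 4h replicate 18 (1.07) and native replicate 9 (0.89). The 4 farthest below were native replicates 30, 28, 27 and 26, at -1.01, -0.97, -0.96 and -0.92, all of the digit 1. Deviations thus went both ways among native arrays.

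Some macrophage and stromal markers also passed in the comparison of CTX 4h with native arrays, in which 1.41% of all genes were called higher. Of 15 macrophage genes 3 rose and none fell: Cd14, a lipopolysaccharide co-receptor (0.96), Msr1, a scavenger receptor (0.66), and Fcgr1, an Fc receptor (0.51). The macrophage mean was 7.99 to 10.09 on CTX 4h arrays and 8.28 to 9.28 on native arrays, and Csf1r differed by 0.10 (limma adjusted p = 0.825). Of 13 stromal and endothelial genes the collagen and matrix genes Lum (0.85), Col1a1 (0.60), Col3a1 (0.59) and Col1a2 (0.46) rose, and the mean was 7.78 to 9.29 on CTX 4h arrays and 7.94 to 8.88 on native arrays.

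With the macrophage mean held, Lpl differed by 0.82 ± 0.27 (limma adjusted p = 0.126, where 0.577% of all genes passed), and with the stromal mean held by 0.71 ± 0.24 (adjusted p = 0.141, where 0.848% passed). With the fat-only level and the macrophage mean both held, it differed by 0.51 ± 0.14 (adjusted p = 0.0881, where 0.276% of all genes passed), and with the fat-only level and the stromal mean by 0.52 ± 0.14 (adjusted p = 0.0525, where 0.471% passed). Lpl remained positive in each of these fits and passed in none. How much of the Lpl difference comes from fat cells, macrophages or stroma was not tested.

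Other lists of tissue genes were read beside these, in a comparison that called 1.41% of all genes higher and 1.26% lower. At these shares a list of such a size may hold no call. Of 9 salivary gland genes, which mark a gland next to the neck lymph nodes, Bpifa2 (2.87) and Amy1 (2.41) rose, and the list mean ranged from 4.95 to 10.72 on CTX 4h arrays and from 4.71 to 10.71 on native arrays. With that mean held, Lpl differed by 1.02 ± 0.28 (limma adjusted p = 0.0589, where 0.797% of all genes passed). Of 10 skeletal muscle genes, which could share Lpl and Car3 with fat, none passed. All 10 differences were positive over all arrays, with a median of 0.17. Within the batch of the digit 8 and at 300 ng 0 of the 10 were positive, with medians of -0.24 and -0.59. For the digits 1 and 9 the medians were 0.07 and 0.73. The muscle list means were 6.09 to 8.76 on CTX 4h arrays and 6.13 to 8.69 on native arrays. Of 8 mammary epithelial genes none passed, and 4 were positive. Of 7 B-cell genes none passed either, and the differences of 6 were negative, with a median of -0.27 against -0.01 for all genes. The part of a changed share of B cells in the adipocyte differences was not tested.

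A further 41 measured adipocyte genes, of 45 listed, were mostly positive. Of them 4 rose, where 1.41% of all genes did, and none fell by limma, 35 were positive and the median difference was 0.27. Hp, which encodes the haemoglobin-binding plasma protein haptoglobin, lay at 6.48, 8.94 and 11.84 on CTX 4h arrays, against 6.28, 8.004 and 9.82 on native arrays (1.17, adjusted p = 0.0228). Plin2, a droplet coat protein of many cell types, lay at 8.83, 10.22 and 11.06 on CTX 4h arrays, against 8.28, 9.57 and 10.55 on native arrays (0.66, adjusted p = 0.00624). For both, the CTX 4h median lay above the native one, and the groups overlapped. The other 2 were Mrap, an accessory protein of melanocortin receptors (0.50, adjusted p = 0.00578), and the transcription factor gene Cebpb (0.50, adjusted p = 6.75e-04). Gpd1, of glycerol phosphate synthesis, differed by 0.71 (adjusted p = 0.152), while Scd1 and Fasn, of fatty acid synthesis, differed by 0.15 and 0.06 (adjusted p = 0.625 and 0.856).

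Genes that act on lipoprotein lipase or on its products were read beside Lpl. Of 15 measured genes of 18 listed, 0 passed, where 2.67% of all genes did in either direction, a share at which a list of this size may hold no call. Of the 15, 9 were positive and the median difference was 0.10. Cd36, which takes up fatty acids, differed by 0.68 (limma adjusted p = 0.255), Angptl4, an inhibitor of the enzyme, by 0.28 (0.278), and Gpihbp1, which anchors the enzyme on capillaries, by 0.23 (0.206). Hspg2, a heparan sulfate proteoglycan, differed by 0.26 (0.0890), Furin, a protease, by 0.34 (0.106), and Lmf1, which matures the enzyme, by -0.13 (0.611). At an unadjusted p under 0.05 there were 6 of the 15, where 17.5% of all genes were: Vldlr, a lipoprotein receptor (0.21), with Hspg2, Furin, Gpihbp1, Cd36 and Angptl4.

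Brown fat genes differed in how far they varied over the arrays. Of 8 measured genes 0 passed by limma, where 2.67% of all genes did in either direction. Ucp1, the heat-producing uncoupling protein, lay at 4.46, 6.07 and 10.65 on CTX 4h arrays, against 4.48, 5.82 and 10.49 on native arrays (0.55, adjusted p = 0.415). Cox8b, a respiratory chain subunit of brown fat and muscle, lay at 5.51, 7.12 and 10.40 on CTX 4h arrays, against 5.51, 6.85 and 9.96 on native arrays (0.73, adjusted p = 0.243). Each group thus held an array with Ucp1 above 10, and the medians lay far below it. From the lowest to the highest array Ucp1 spanned 6.2 (log2), Cox8b 4.90 and Cidea 3.51. The other brown fat genes spanned less, between 0.96 (Prdm16) and 2.73 (Ppargc1a).

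The genes closest to the fat-only level over all 63 arrays, by Pearson r after removing the means of each batch and treatment, were Ghr (0.95), Cyp2e1 (0.94), Ces1d (0.91), Plin4 (0.89), Car5b (0.89) and Cdo1 (0.89). Among the adipocyte genes outside that level, r was 0.93 for Fabp4, 0.88 for Lpl and Car3, 0.74 for Lipe and 0.71 for Pparg. For Lpl itself the closest of the adipocyte genes was Cidec (0.89), and outside them Ghr (0.87), Cdo1 (0.86), Adhfe1 (0.86), Car5b (0.85) and Cyp2e1 (0.84). These are descriptions over arrays that share batches and carry no p-value.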

How the data were processed

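Gene expression was measured in 63 lymph node lymphoma samples on single-colour Affymetrix arrays. The authors deposited log2 expression values; Partek 6.5 and RMA, which corrects background, normalizes and summarises probes, are named per the submitters' processing notes. Which arrays were normalized together and the genome build are not given in the sources used here. RMA compresses differences of dim genes, and the number of arrays limits the precision.

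The platform annotation gave 1 symbol for 21789 of 35557 probe sets, several for 1621 and none listed for 12147. Gene IDs of 21698 single-symbol probe sets were found in the RefSeq table. For each of 19938 genes the probe set of highest mean among those with its symbol alone was kept. Groups came from the treatment label. Differences were fitted with limma 3.58.1 (R 4.3.3, lmFit and eBayes), with terms for treatment and RNA input, two-sided p-values adjusted over all genes by Benjamini-Hochberg (call at adjusted p under 0.05), and the model was tested on simulated data. Correlations used 100000 permutations, or exact ones under 10 arrays. The fat-only level, planned over 5 genes, was taken over 4 without Cfd, and 14 correlations were run in place of 16.

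The members, lists and tests were chosen with earlier results of these data known. Named genes were the 9 measured members, the called members of the further lists with others of small p or high level, and those closest in pattern. Alternatives covered the model terms, batches, scaling, filters, array weights, covariates and single arrays; further ones, chosen after seeing the data, were the batch block, the 100 ng arrays with number series, and the added fits with fat-only genes held. Figures used matplotlib 3.10.9.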

Additional observations from a re-analysis of the deposited data

How the results depend on the processing

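No paired analysis was possible because each array has its own lymphoma number and no label pairs arrays. The Lpl difference was positive under every alternative run. It lost its call with no RNA input term (0.62), at 100 ng alone (1.12), at 300 ng alone (1.46), with the macrophage (0.82), stromal (0.71) or salivary mean (1.02) held, and at 100 ng with number series (0.78). With fat-only genes held it lost its call at 100 ng (0.59), with the macrophage (0.51) or stromal mean (0.52) added, and within batches (0.72, 0.38, 0.33 and 0.34), which hold fewer arrays. The cause was not tested.

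Of the 9 members, 2 were called higher over all arrays, where 281 of 19938 genes were. The number was 0 with no RNA input term, at 100 ng alone or with number series, and with the macrophage, stromal or salivary mean held. In that order 118, 30, 12, 41, 74 and 124 of all genes were called higher. It was 1 with number series, with the batch block, at 300 ng alone, with quantile normalization and without the array titled rep2. In those fits 142, 144, 238, 420 and 264 genes were called higher. The number was 5 without native replicates 25 and 4, where 838 genes were called higher, and 9 with array weights, where 2151 were. Array weights gave native replicates 25 and 4 weights of 0.0798 and 0.210.

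Genes called higher and lower numbered 281 and 251. They were 142 and 66 with number series, 144 and 66 with the batch block, 30 and 20 at 100 ng, 12 and 3 at 100 ng with number series, and 108 and 46 at a fold of at least 1.5. They were 2151 and 3677 with array weights and 838 and 1657 without native replicates 25 and 4. With a covariate held they were 46 and 38 (fat-only), 104 and 80 (Adipoq), 41 and 74 (macrophage), 74 and 95 (stroma) and 124 and 35 (salivary). Genes higher were 118 with no RNA input term, and genes lower 114 at 300 ng.

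Leaving out 1 array gave Lpl differences of 1.08 to 1.28, and of 0.51 to 0.59 with fat-only genes held. It gave 1 to 4 members called, 136 (without CTX 4h replicate 1) to 551 genes higher and 105 to 1034 genes lower (551 and 1034 without native replicate 25).

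Car3 turned to -0.33 with the fat-only mean held and to -0.11 with the stromal mean held, neither past the threshold. On native arrays the correlation of Lpl with Cd68 turned to -0.0225 without the 2 farthest arrays, and that with Csf1r to 0.28 after removing batch and treatment means. A common median and quantile normalization left the median difference of all genes at -0.02 and -0.01. Signal over background was not used here.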
